A study of Mus musculus with 2 samples.

Results

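The muscle glycolysis enzymes examined here are 10 genes that carry glucose to pyruvate in the myofiber: Hk2, Gpi1, Pfkm, Aldoa, Tpi1, Gapdh, Pgk1, Pgam2, Eno3 and Pkm. They were taken as a list of gene symbols by their place in the pathway, by a rule that uses no binding value but was written with earlier results of these data known, and all 10 were found among the 21000 protein-coding genes with a known RefSeq transcript on the mm10 mouse genome. NRF1 occupancy at their promoters was read from chromatin immunoprecipitation followed by sequencing (ChIP-seq), a method that enriches DNA bound by a protein with an antibody and shows occupied sites as peaks of reads over a control. The tissue was skeletal muscle of wild-type mice aged 9 weeks, with no treatment in the labels, and both of the 2 libraries are labelled with the NRF1 antibody. In the reporting summary the second library is listed as input DNA, and the mice of the study are given as male. A single list of 3226 peaks, whose names all carry the title of the first library, was analysed, so no value below has a replicate error. The paper reports fewer NRF1 binding sites than this list holds, so the counts below are not those of the published set. Muscle tissue also holds nuclei of other cell types, and a list of peaks gives no expression from which the tissue label could be checked.

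The transcription factor NRF1 (nuclear respiratory factor 1) is best known for nuclear genes of mitochondrial respiration, and it binds a GC-rich palindrome close to transcription starts. Glycolysis works in the cytosol: a preparatory phase spends ATP to turn glucose into triose phosphates, and a payoff phase regains ATP and ends at pyruvate, which enters mitochondria or becomes lactate. Fast-twitch myofibers rely on it heavily, and several of its steps use a muscle isozyme there, such as PFKM, PGAM2 and ENO3.

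Of these 10 enzymes, Pgk1 alone had an NRF1 promoter peak, that is, a summit within 1000 bp before to 100 bp after a known start. The share was 10% of the list, against 13.4% of all protein-coding genes (2808 of 21000, Wilson 95% interval 12.9 to 13.8%). A list of 10 genes cannot separate these shares, and the count is therefore no result about glycolysis as a group. The other 9 genes had their nearest summit between 2092 and 264349 bp from a start. For 8 of those 9 genes that summit lay in the promoter of another gene, and for Hk2 it lay in an intron of Loxl3.

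The Pgk1 sequence is shown first because it is the single occupied promoter. It runs from 350 to 121 bp before the start, chrX:106186750-106186979, plus strand, from the RefSeq assembly GRCm38.p6, which is mm10. The capitals mark the one copy of the NRF1 palindrome GCGCATGCGC with at most 1 mismatch in the whole promoter.
Pgk1: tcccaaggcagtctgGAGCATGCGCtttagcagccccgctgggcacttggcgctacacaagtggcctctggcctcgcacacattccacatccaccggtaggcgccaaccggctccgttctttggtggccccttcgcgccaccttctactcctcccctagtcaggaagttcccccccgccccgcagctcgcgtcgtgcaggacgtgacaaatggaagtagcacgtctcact

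Pgk1 encodes phosphoglycerate kinase 1, the first ATP-forming step of the payoff phase, and lies on the X chromosome at chrX:106187100-106203699 with 1 known start. Its peak, chrX:106186786-106186968, was 183 bp wide, with the summit 249 bp before the start and in intergenic sequence. Fold enrichment, by which pulled-down signal exceeded the local background, was 7.22, and −log10 q was 8.36. This was a weak peak of the list: 2499 of the 3226 peaks had a higher fold enrichment, and 19.3% of the 2607 promoter peaks had a lower one. Promoter peaks had a median of 11.1, with quartiles of 7.9 and 16.4. The promoter belonged to no other known transcript.

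The motif copy at Pgk1 stood apart from the called peak. It was centred 81 bp upstream of the summit and ended 12 bp before the first base of the peak. Of the 2607 promoter peaks, 1714 held a copy wholly inside the peak, 888 had none within 100 bp of the summit, and only 5, Pgk1 included, had one within 100 bp but not wholly inside. Among the 1719 promoter peaks with a copy within 100 bp of the summit, 28 had their nearest copy as far from the summit as that of Pgk1 or farther. Copies beyond 100 bp were not counted, so a peak with only a farther copy is among the 888. The 28 therefore do not show how rare such a distance is.

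**Figure D1:**
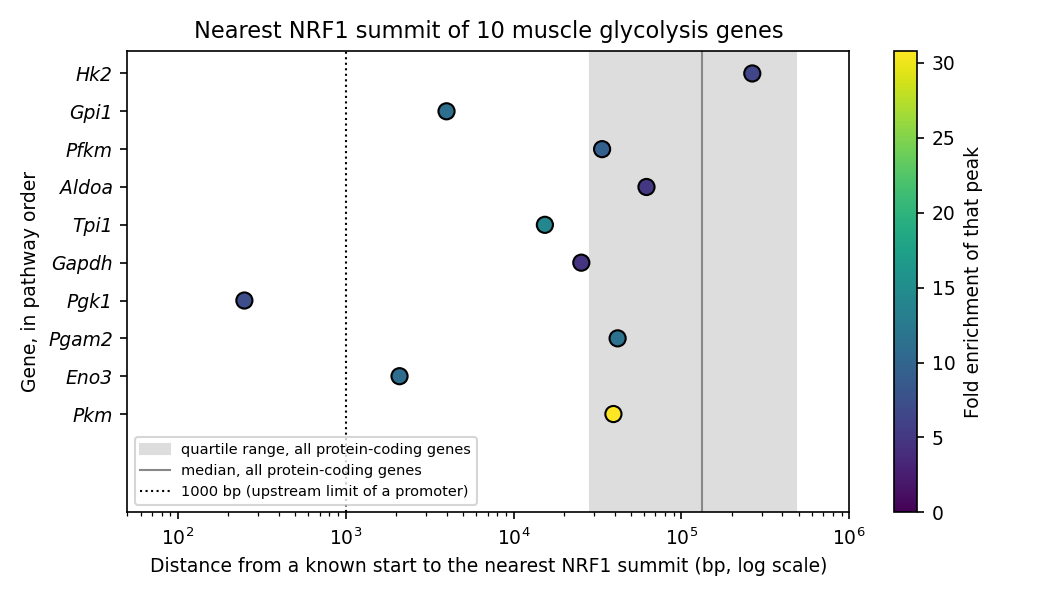
Distance in bp, on a log axis, from a known start of each of the 10 genes to the nearest NRF1 summit, coloured by the fold enrichment of that peak; the grey band and line are the quartile range and the median of all protein-coding genes, and the dotted line is 1000 bp. Pgk1 sits at 249 bp, Eno3 at 2092 bp and Gpi1 at 3986 bp, and Hk2 alone lies beyond the median of 133136 bp.

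The distance to the nearest NRF1 summit was set beside that of all genes. The median distance to the nearest summit was 29501 bp over the 10 genes, and 9 of them lay under the median of all protein-coding genes, 133136 bp (quartiles 28418 and 481236 bp). Counted within 100000 bp of a start, Gpi1 had 4 summits, Aldoa, Pgam2 and Eno3 had 3 each, and Gapdh and Pkm had 2. Pfkm, Tpi1 and Pgk1 had a single one and Hk2 had 0. Of all protein-coding genes, 44.3% had at least 1 summit in that range, with a median of 0 and an upper quartile of 1. Among the further lists of glucose metabolism counted below, the median nearest distance ran from 16402 bp for citric acid cycle enzymes to 140027 bp for glycogen metabolism. It was 28242 bp for glucose and lactate transport and lactate dehydrogenase, and 56813 bp for pyruvate entry. For control of glycolysis it was 76497 bp and for the other isozymes 78936 bp. A short distance was thus not particular to muscle glycolysis. No test of the group's distances was made. The −log10 q of the 10 nearest peaks ranged from 5.9 at Gapdh to 92.5 at Pkm, beside a median of 23.3 over all peaks.

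In the preparatory phase, none of the 5 enzymes had a promoter peak. Hk2, hexokinase 2, which traps glucose as glucose 6-phosphate in muscle, lies at chr6:82725025-82774454 and was the farthest, with a summit 264349 bp upstream (fold enrichment 6.44). Gpi1, glucose-6-phosphate isomerase, at chr7:34201327-34230336, had a summit 3986 bp upstream with a fold enrichment of 11.1. That peak, chr7:34234140-34234421, lay in the promoter of the neighbouring Gm12758, 55 bp before its start. Of all protein-coding genes, 15.6% had a nearer summit than Gpi1.

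Pfkm, the muscle phosphofructokinase and the committed step of the pathway, has 4 known starts in chr15:98092589-98132447, and none of them had a summit nearer than 33679 bp. The nearest summit, downstream of the gene, was in the promoter of Asb8 (fold enrichment 9.29). Aldoa, the muscle aldolase, at chr7:126795234-126800994, had 3 known starts and a nearest summit 61918 bp upstream, at Ino80e, a subunit gene of a chromatin remodeller. Its fold enrichment was 4.94, and 5.7% of all peaks were lower. For Tpi1, triosephosphate isomerase, at chr6:124810586-124814158, the nearest summit was 15364 bp upstream. It was shared by the promoters of Cdca3 and Usp5, a deubiquitinase, and had a fold enrichment of 14.2.

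In the payoff phase Pgk1 was the occupied gene and the other 4 were not. Gapdh, glyceraldehyde-3-phosphate dehydrogenase, at chr6:125161852-125166467, had its nearest summit 25323 bp upstream, in the promoters of Mrpl51 and Ncapd2, at a fold enrichment of 4.72. That peak was the weakest of the 10 nearest peaks and held no motif copy within 100 bp of its summit. Pgam2, the muscle phosphoglycerate mutase, at chr11:5801637-5803796, had a summit 41677 bp downstream of its start, in the promoter of Ube2d-ps (fold enrichment 11.6), also without a copy. Pkm, pyruvate kinase, which makes pyruvate in the last step, spans chr9:59656576-59679372 and has 11 known transcripts from 2 starts. Its nearest summit, 39339 bp upstream at Parp6, had a fold enrichment of 30.8, and only 58 peaks of the list were stronger. The strongest peak near a glycolysis gene thus lay at the promoter of a neighbour.

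Eno3, the muscle enolase, was the member whose call depended on the annotation. The summit of the peak chr11:70654962-70655185 lay 2092 bp before its known start at position 70657176, with a fold enrichment of 10.9 and −log10 q of 31.4. It lay 434 bp before the start of Pfn1, profilin 1, an actin-binding protein encoded on the opposite strand, and so counted as a Pfn1 promoter peak. RefSeq also holds predicted transcripts of Eno3, one of which starts at 70655259, 175 bp after the summit. With predicted transcripts included, Eno3 gained a promoter peak and 2 of the 10 genes had one, against 13.9% of all protein-coding genes. With GENCODE M21 basic starts the nearest Eno3 start was 2118 bp away and Pgk1 was again the sole gene. The list of peaks does not tell which of the starts muscle uses.

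The nearest peaks of 5 glycolysis genes with no copy in their own promoter, Gpi1, Pfkm, Tpi1, Eno3 and Pkm, carried the motif near the summit. The summits of 3 of them are shown, chosen after their values were seen: Eno3 because its call depended on the annotation, Tpi1 for the exact palindrome, and Pkm for the highest fold enrichment. Each is the 40 bases on either side of the summit on the strand of the glycolysis gene (GRCm38.p6), with motif copies of at most 1 mismatch in capitals.
Eno3, summit in the Pfn1 promoter, chr11:70655044-70655124, plus: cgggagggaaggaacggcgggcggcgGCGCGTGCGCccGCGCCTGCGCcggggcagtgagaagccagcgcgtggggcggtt
Tpi1, summit in the Cdca3 and Usp5 promoters, chr6:124829482-124829562, minus: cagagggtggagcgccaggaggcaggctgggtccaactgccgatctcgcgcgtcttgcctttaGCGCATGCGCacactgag
Pkm, summit in the Parp6 promoter, chr9:59617197-59617277, plus: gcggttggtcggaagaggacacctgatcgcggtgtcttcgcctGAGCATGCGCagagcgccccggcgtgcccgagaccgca

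The peak near Tpi1 held the exact palindrome, that of Eno3 held 2 copies with 1 mismatch, and that of Pkm held GAGCATGCGC, the form found at Pgk1. The peak near Pkm had 2 copies within 100 bp of its summit, and 1 of them lies in the printed stretch. In all, 8 of the 10 nearest peaks had a copy within 100 bp of the summit, against 64.8% of all peaks and 65.9% of promoter peaks, a difference that was not tested, and the peaks nearest to Gapdh and Pgam2 had none.

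The promoters of the glycolysis genes were then searched for the palindrome on both strands. It occurred with at most 1 mismatch in the promoters of 3 of the 10 genes, Hk2, Aldoa and Pgk1, against 12.1% of all protein-coding genes (2548 of 21000). A list of 10 genes cannot separate these shares, and the difference was not tested. None of the 10 held the exact palindrome, which 1.75% of all genes held. Neither the copy of Hk2 nor that of Aldoa carried a peak, and that of Aldoa is not printed here. The Aldoa copy lay only in the promoter of its most upstream start. The copy of Hk2 is printed with 25 bases on either side, on the minus strand, which is the strand of the gene, with the copy in capitals.
Hk2, copy at chr6:82774711-82774720: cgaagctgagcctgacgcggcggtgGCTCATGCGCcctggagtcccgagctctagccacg

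The Hk2 copy was centred 261 bp before the start. Over the promoters of all protein-coding genes there were 2900 copies with at most 1 mismatch, and 2035 of them had a summit within 100 bp, or 70.2%. By form, read on either strand, it was 17 of 39 copies, or 43.6%, for the form at Hk2, 117 of 188, or 62.2%, for that at Pgk1, and 458 of 629, or 72.8%, for that at Aldoa. The form at the occupied Pgk1 thus lay between those of the unoccupied genes. For the exact palindrome it was 286 of 345, or 82.9%.

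Across all protein-coding genes, the share with a promoter peak fell with the distance of the motif from the start. Where the nearest copy was within 100 bp of a start, 1367 of 1685 genes had a promoter peak, or 81.1%. At 251 to 500 bp, the range of Pgk1 and Hk2, it was 148 of 253 genes, or 58.5%. At 501 to 1000 bp, the range of Aldoa, it was 57 of 171, or 33.3%. Of the 18452 genes without a copy, as were the other 7 glycolysis genes, 888 had a promoter peak, or 4.81%. No glycolysis gene had a copy within 250 bp of a known start.

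**Figure D2:**
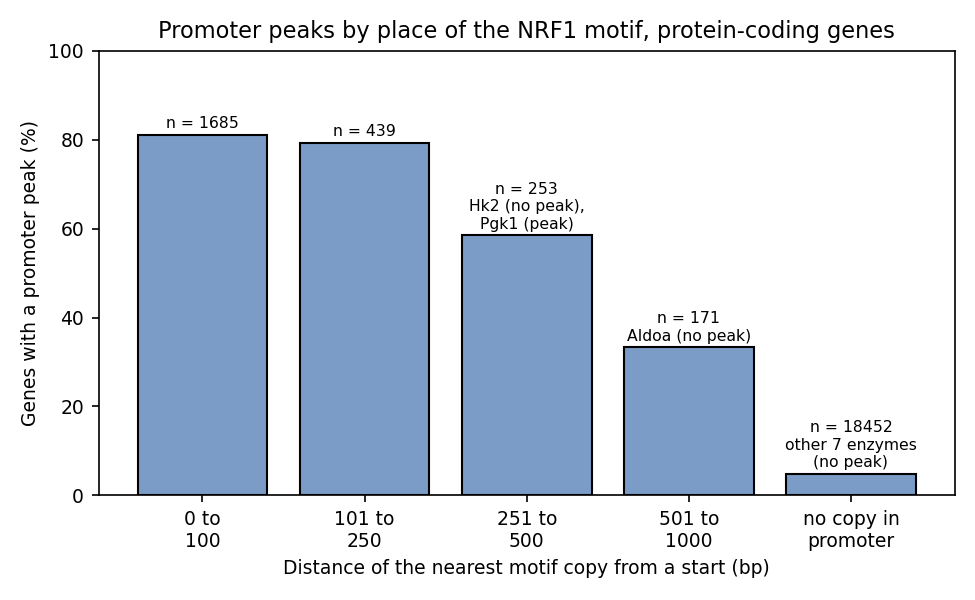
Share of protein-coding genes with an NRF1 promoter peak (y axis, percent, from 0) by the distance in bp of the nearest motif copy from a start (x axis), with the number of genes n above each bar and the glycolysis genes of that class named. The share falls from 81.1% at 0 to 100 bp to 33.3% at 501 to 1000 bp and is 4.81% without a copy, the class that holds 7 of the 10 genes.

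Base composition at the start was compared with that of all starts, since NRF1 peaks lie in CpG-rich sequence. Within 100 bp of a start, starts with a promoter peak had a median GC content of 67.7% (quartiles 62.7 and 73.1%) and a median ratio of observed to expected CpG of 0.94 (0.81 and 1.05). Starts without a peak had medians of 58.7% and 0.56. The 17 known starts of the glycolysis genes ranged from 42.3 to 70.6% GC, and their CpG ratio from 0.00 to 1.

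The CpG ratio differed between starts of the same pathway. It was 0.00 at Pgam2, as at the most upstream start of Aldoa, 0.13 at Eno3, and between 0.23 and 0.59 over the 4 starts of Pfkm. Pkm, Gpi1 and the downstream starts of Aldoa had higher ratios. Gpi1 reached 70.6% GC and a ratio of 0.96, the upstream start of Pkm 68.2% and 0.99, and the most downstream start of Aldoa 62.7% and 0.88. These were the 3 of 17 starts at or above the lower quartile of occupied starts in both measures, and none had a peak. Of all 7453 such starts in the genome, 1989 had one, or 26.7%, and of the rest 6.54%. Pgk1, with 69.7% GC, was below that quartile in CpG ratio, at 0.76. These measures did not sort the one occupied gene from the others.

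**Figure D3:**
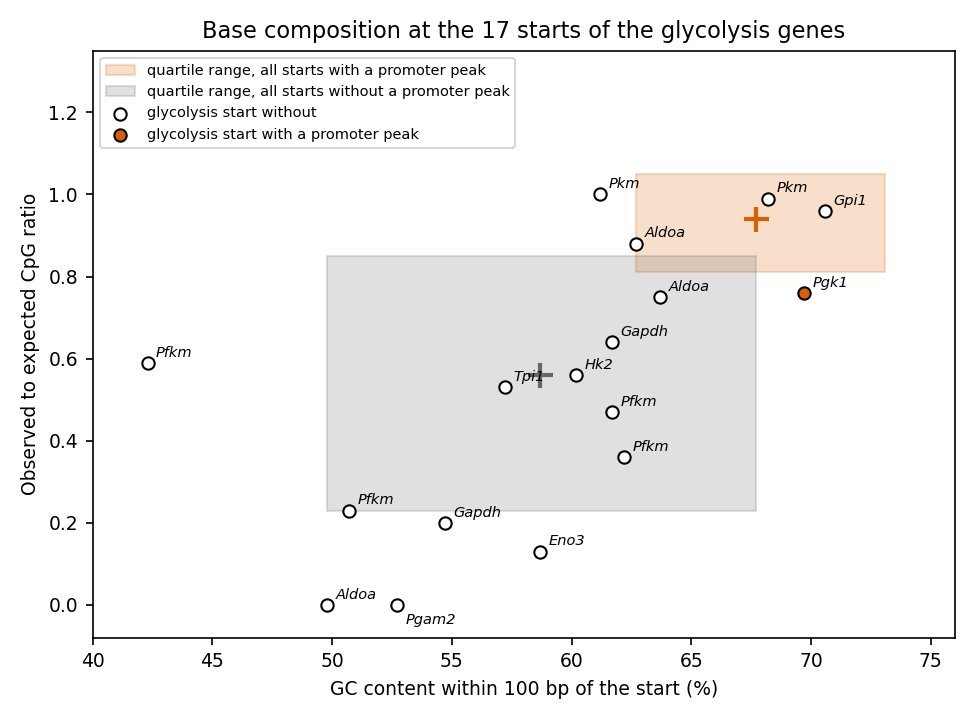
GC content in percent (x axis) and observed to expected CpG ratio (y axis) within 100 bp of each of the 17 known starts of the glycolysis genes; shaded boxes are the quartile ranges and crosses the medians of all starts with (orange) and without (grey) a promoter peak. Starts of Gpi1, Pkm and Aldoa fall in the range of occupied starts without a peak, and Pgk1, in orange, lies just under it in CpG ratio at 0.76.

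Reads that map to several places were discarded by the authors, so the promoters were checked for repeated sequence. Every 50-base window in the promoters of the 10 genes occurred once on the assembled chromosomes by exact match, 100% in each gene. Near matches were not searched. The read depth is unknown, and a site below the threshold of the peak caller cannot be told from an unoccupied one.

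Other genes of glucose metabolism were counted in the same way, from lists drawn up by function. Among 17 glycolysis isozymes used mainly by other tissues or by all cells, 2 had a promoter peak, or 11.8%. They were Pgam1, the widely expressed phosphoglycerate mutase, and Eno1, the widely expressed enolase. Pgam1 had the summit 19 bp before the start with a fold enrichment of 17.4, and the exact palindrome was among its 2 copies. Its muscle counterpart Pgam2 had no summit within 41677 bp. Eno1 had the summit 69 bp after a start, a fold enrichment of 6.05 and no copy within 100 bp of the summit. With wider promoter windows or any overlap of peak and promoter, 3 of these 17 isozymes had a promoter peak.

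Around glycolysis, Ldha and Slc16a1 were occupied among 10 genes of glucose and lactate transport and lactate dehydrogenase, or 20%. Ldha makes the muscle subunit of lactate dehydrogenase, and its summit lay 27 bp after a start with a fold enrichment of 5.01. Slc16a1, the monocarboxylate transporter 1, had its summit 38 bp before the start with a fold enrichment of 11.5. Slc2a4, the insulin-responsive glucose transporter of muscle, was named after its value was seen: its summit, with a fold enrichment of 9.1, lay 330 bp after a start and therefore outside the promoter as defined. The copies nearest to the summits of Pgam1 and Ldha are shown, with 10 bases on either side, for comparison with Pgk1.
Pgam1, chr19:41911861-41911890, plus: cttgcctgagGCGCATGCGCacacggggcg
Ldha, chr7:46847110-46847139, plus: aaggaagcttGCGCGTGCGCaggcttaagc

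Among 7 genes that set the level of fructose bisphosphates, Pfkfb4, which makes the activator fructose 2,6-bisphosphate, and Tigar, which removes it, had a promoter peak, or 28.6%, with fold enrichments of 11.1 and 15.1. In glycogen metabolism it was 2 of 19 genes, or 10.5%. They were Pygb, the brain glycogen phosphorylase, at 4.55, and Phka1, the muscle subunit of phosphorylase kinase, at 8.56. The muscle phosphorylase gene Pygm and the muscle glycogen synthase gene Gys1 had none. The glycogen count depended on the settings: it was 4 with wider promoter windows and 1 at a stricter q or fold enrichment.

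Downstream of glycolysis, pyruvate enters mitochondria and is oxidized. Of 15 genes of pyruvate entry, 4 had a promoter peak, or 26.7%: Pdha1, Dld and Pdhx, subunits of the pyruvate dehydrogenase complex, and Pdk1, a kinase that inhibits it. Their fold enrichments were 4.81, 12.2, 8.03 and 6.49. Of 18 citric acid cycle enzymes, Dld included again, 7 had one, or 38.9%. Besides Dld these were Idh3a, Idh3g, Sucla2, Sdha, Sdhb and Sdhd, and their fold enrichments ranged from 9.55 at Idh3a to 19.3 at Sdhb, all above that of Pgk1. The summits of Idh3g, Sdha and Sdhd also lay in promoters of Ssr4, Ccdc127 and Timm8b, in that order. That of Pdhx also lay in a promoter of Apip. The shares are read beside 13.4% of all protein-coding genes. The difference between glycolysis and the citric acid cycle was not tested.

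**Figure D4:**
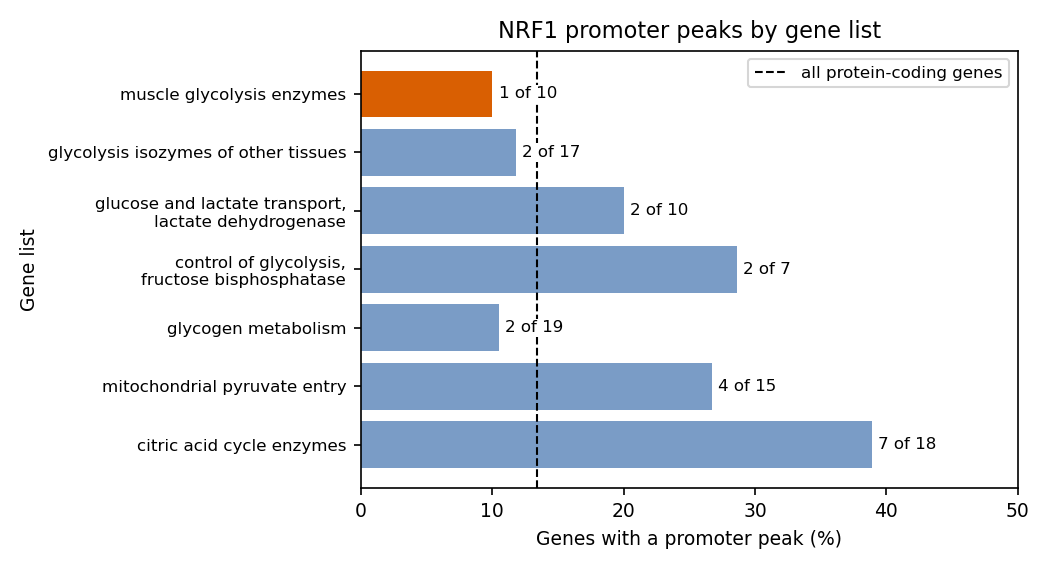
Share of genes with an NRF1 promoter peak (x axis, percent, from 0) for the muscle glycolysis enzymes in orange and 6 further lists of glucose metabolism in blue, with counts beside the bars; the dashed line is the share of all protein-coding genes, 13.4%. With the promoter as defined, muscle glycolysis, other glycolysis isozymes and glycogen metabolism lie under the line, at 10 to 11.8%. The citric acid cycle is highest at 38.9%. With wider promoter windows the other isozymes and glycogen metabolism pass the share of all genes.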

How the data were processed

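ChIP-seq of NRF1 in skeletal muscle was analysed from the 1 deposited list of peaks. Per the methods, single-end 50-base reads were aligned by the authors to mm10 (Bowtie 1.1.2), multi-mapping reads and reads in an ENCODE blacklist named for a human build were dropped, and MACS2 2.2.7.1 called peaks over input DNA at an FDR limit of 0.01. The methods name the broad option, whereas the file has the narrow layout with summits. In the deposited list 7 peaks exceeded that limit. The authors deposited, for each peak, a fold enrichment (a ratio), a p-value and a q-value as −log10, a score derived from the q-value that was not used, and a summit position. The read depth is unknown. Duplicate removal, which the peak names record, limits the signal of strong sites, and fold enrichment depends on the depth of the control.

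Starts were those of known RefSeq transcripts on GRCm38.p6, and all peaks lay within its chromosome lengths. Summits were assigned to promoters, and sequence was read with pysam 0.24.0 in Python 3.11.15. Motif matching used both strands. The sequence of the Aldoa copy is not reported here. Functions were tested on simulated data. The share of all protein-coding genes with a promoter peak carries a Wilson 95% interval, which covers counting over genes only. No test between lists was made. All 10 members were named, and of other lists each gene with a promoter peak was named. The members and lists were chosen with earlier results of these data known. Alternatives were the promoter window, any overlap, stricter q or fold, other transcripts and other mismatch limits.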

Additional observations from a re-analysis of the deposited data

How the results depend on the processing

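Of 106 alternative values for 20 results under 9 alternatives, 98 differed from the reported one by at most 1.5 times. The number of glycolysis genes with a promoter peak was 1 with every window, overlap and threshold tried and with GENCODE M21 basic starts, an annotation chosen after seeing the data, and 2 with predicted transcripts included, which bring the Eno3 start at 175 bp. The share of all protein-coding genes moved between 12.8 and 14.7%. The motif was found in 0 of the 10 genes with no mismatch and in 5 with at most 2, when 37.3% of all genes held it. With a promoter 500 bp either side it was in 2, Hk2 and Pgk1, against 13.3% of all genes. It was in 4 with 2000 bp before to 500 bp after, against 15.1%, and in 4 with predicted transcripts included, against 13.3%. In glycogen metabolism the count of 2 became 4 with a promoter 500 bp either side or 2000 bp before to 500 bp after the start, and 1 at a q of at most 1e-05 or a fold enrichment of at least 5, where Pygb was lost. Among the other glycolysis isozymes the count of 2 became 3 of 17 with either of these windows and with any overlap. These gains put both lists over the share of all genes. For glucose and lactate transport and lactate dehydrogenase, 2 became 3 of 10 with either window and with predicted transcripts included. For pyruvate entry, 4 became 3 of 15 at the stricter q or fold enrichment.

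With a single set of calls, leaving out a replicate was not possible. No paired analysis was possible because only one set of calls exists and nothing is contrasted. Since depth is unknown, the absence of a peak at the other 9 genes has no stated precision.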

Other observations

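Of the 18192 protein-coding genes without a promoter peak, 14871 had their nearest summit in the promoter of another gene, or 81.7%, so the same pattern at 8 of the 9 unoccupied glycolysis genes is common to unoccupied genes. A summit within 5000 bp of a start, a limit set after the distances were seen, was present at 2 of these 9 genes, Eno3 and Gpi1, and at 2.9% of all unoccupied genes. Eno4, an enolase-family gene, was named after its value was seen: its nearest summit lay 276 bp after its start, in the promoter of Hspa12a, with a fold enrichment of 17.6.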
